A study of Homo sapiens with 4 samples.

Results

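The EGF family ligands examined here were AREG, EREG, HBEGF, TGFA, BTC, NRG1 and EPGN, taken as the rows of the gene count table whose Ensembl identifiers carry these symbols. All 7 had a row, among 20263 genes in all. They were measured by messenger RNA sequencing in MDA-MB-231, an established human triple-negative breast cancer cell line. The cells were grown in medium with 10% serum and held for 24 h with the solvent DMSO or with Neoribocic, a compound which the series title links to a cell cycle block. The protocol names the treatment Rib_CA, and that this is Neoribocic is assumed here from the library titles. Each group had 2 libraries, and the labels give neither a dose nor a structure of the compound. Whether both libraries of a group stem from different cultures is not stated, so each p-value reflects only how these libraries vary, which may be technical.

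EGF family ligands are made as membrane-anchored precursors, cut at the cell surface by metalloproteases of the ADAM family, and bind receptors of the ErbB family on the same or neighbouring cells. AREG (amphiregulin) and TGFA (transforming growth factor alpha) bind EGFR, HBEGF (heparin-binding EGF-like growth factor), EREG (epiregulin) and BTC (betacellulin) bind EGFR and ERBB4, EPGN (epigen) binds EGFR, and NRG1 (neuregulin 1) binds ERBB3 and ERBB4. Bound receptors pair and signal through RAS and ERK and through PI3-kinase. Basal-like breast cancer cells are known for high EGFR and for making several of these ligands themselves.

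With Neoribocic the mRNAs of 3 EGFR ligands rose. AREG and EREG rose to 3.06 and 3.01 times the DMSO level, and HBEGF rose to 1.91 times. TGFA and BTC did not pass the test, NRG1 lay lower in both treated libraries but did not pass either, and EPGN was too rare to be tested. EGFR, the receptor that the 3 ligands share, fell. In bulk RNA a change per cell cannot be told apart from a change in the share of cells that express a gene.

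EREG, AREG, BTC and EPGN neighbour each other on chromosome 4, while HBEGF lies on chromosome 5 and TGFA on chromosome 2. The 250 bases before the RefSeq start (GRCh38.p14) are shown for the 3 ligands that rose and for TGFA, so that promoters of genes that moved together can be set beside one that did not pass. They are written 5′ to 3′ on the strand of the gene. Capitals mark matches, on either strand, to the cyclic AMP response element TGACGTCA (CRE), the TATA box TATAAA and the GC box GGGCGG.
AREG, chr4:74444886-74445135, plus strand: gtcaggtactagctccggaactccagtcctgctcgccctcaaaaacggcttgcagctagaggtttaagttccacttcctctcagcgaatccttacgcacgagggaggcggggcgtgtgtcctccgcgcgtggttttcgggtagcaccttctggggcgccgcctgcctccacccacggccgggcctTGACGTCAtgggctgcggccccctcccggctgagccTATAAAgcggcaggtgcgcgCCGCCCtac
EREG, chr4:74364895-74365144, plus strand: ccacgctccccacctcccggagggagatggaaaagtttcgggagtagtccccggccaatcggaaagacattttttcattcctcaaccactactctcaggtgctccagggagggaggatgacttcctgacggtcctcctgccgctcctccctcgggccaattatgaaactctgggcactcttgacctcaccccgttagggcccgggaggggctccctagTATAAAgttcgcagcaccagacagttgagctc
HBEGF, chr5:140346604-140346853, minus strand: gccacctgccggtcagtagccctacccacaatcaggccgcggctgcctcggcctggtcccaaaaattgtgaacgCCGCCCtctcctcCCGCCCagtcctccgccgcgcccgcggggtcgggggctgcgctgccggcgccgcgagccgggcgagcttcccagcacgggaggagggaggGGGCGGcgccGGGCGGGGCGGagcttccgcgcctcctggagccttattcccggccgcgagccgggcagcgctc
TGFA, chr2:70553827-70554076, minus strand: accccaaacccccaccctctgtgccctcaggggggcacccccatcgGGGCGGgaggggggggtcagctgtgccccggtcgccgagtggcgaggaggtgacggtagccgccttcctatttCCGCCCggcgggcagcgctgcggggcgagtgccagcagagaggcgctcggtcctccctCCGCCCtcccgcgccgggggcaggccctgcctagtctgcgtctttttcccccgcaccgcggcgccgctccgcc

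The 4 promoters differed in composition, with a GC content of 65.2% for AREG, 58.0% for EREG, 76.4% for HBEGF and 75.6% for TGFA. AREG held a full CRE that begins 65 bases before the start and is found in 1.65% of 35116 promoters of this length. It also held a TATA box, beginning 29 bases before the start, and 1 GC box. EREG had a TATA box 32 bases before the start and only the CRE core TGACG, 125 bases before it; a TATA box was found in 10.7% of all promoters and the core in 21.2%. The core is part of the full CRE. HBEGF had neither a TATA box nor a CRE core but 5 GC boxes, and TGFA had 3 GC boxes and 1 CRE core. GC boxes occurred in 42.6% of promoters. No match to the AP-1 site TGANTCA (in 6.57% of promoters), to the ATF4 composite site TGATGNAA (3.14%) or to the SRF CArG box (1.16%) was found in these 4 windows. The NF-kB consensus (9.96%) matched in TGFA and the TEAD motif GGAATG (11.9%) in EREG. Among the ligands not shown, EPGN, which was not tested, also had a TATA box, 29 bases before the start, and a CRE core, 44 bases before it. BTC, which did not pass, had neither. A match describes letters and is no sign of a bound factor, and none of the motifs searched was in all 3 promoters of the rising ligands.

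Levels are given as CPM, the share of a gene in its library's counts scaled to a fixed total, with library sizes adjusted by the trimmed mean of M-values (TMM). Log2 fold changes are Neoribocic minus DMSO with their standard error, and adjusted p-values come from the quasi-likelihood F-test of edgeR, adjusted by Benjamini and Hochberg's method over all genes tested and called below 0.05. Of 13879 genes tested, 40.4% passed in either direction, 19.1% upward and 21.3% downward. Of the 7 ligands 6 passed the filter on low counts and were tested, and of these 3 rose and 0 fell. Their median log2 fold change was 0.54, against 0.01 over all genes tested. Without Neoribocic replicate 1 the genes called fell from 5610 to 2468, and without DMSO replicate 1 or 2 those called higher fell from 2650 to 1718 or 1671. The 3 rising ligands kept their call and direction with any of the 4 libraries left out.

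The libraries held 34774542 to 43014212 counts. Mitochondrial genes took 21.7% of counts in DMSO replicate 2 and 5.76% to 8.68% in the others, and without these genes the same 3 ligands were called. Markers of the line were present. The 8 basal and mesenchymal genes examined summed to 7153 and 8179 CPM in DMSO and to 5980 and 6133 CPM in Neoribocic. VIM (vimentin), at 2804 to 4238 CPM, was the largest part of that sum. Of the 8 genes 4 were called lower, and 1, LAMB3, was called higher, from 360 ± 26.1 to 664 ± 3.98 CPM. Of all genes tested 21.3% were called lower and 19.1% higher. The 11 luminal markers summed to 815 and 997 CPM in DMSO and to 1205 and 913 CPM in Neoribocic. The keratins KRT8, KRT18 and KRT19, at 148 to 498 CPM, made up 86.4% to 89.0% of that sum. Other luminal markers were detected too, ERBB2 at 65.55 to 108.5 CPM and EPCAM, GATA3 and FOXA1 at 3.5 to 21.8 CPM. Among the rare ones CDH1 (E-cadherin) was at 0 in 2 libraries and at most 0.141 CPM in the others, and ESR1, the gene of the estrogen receptor, reached at most 0.649 CPM. Of the 9 luminal markers tested 1 was called higher and 3 lower.

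**Figure D1:**
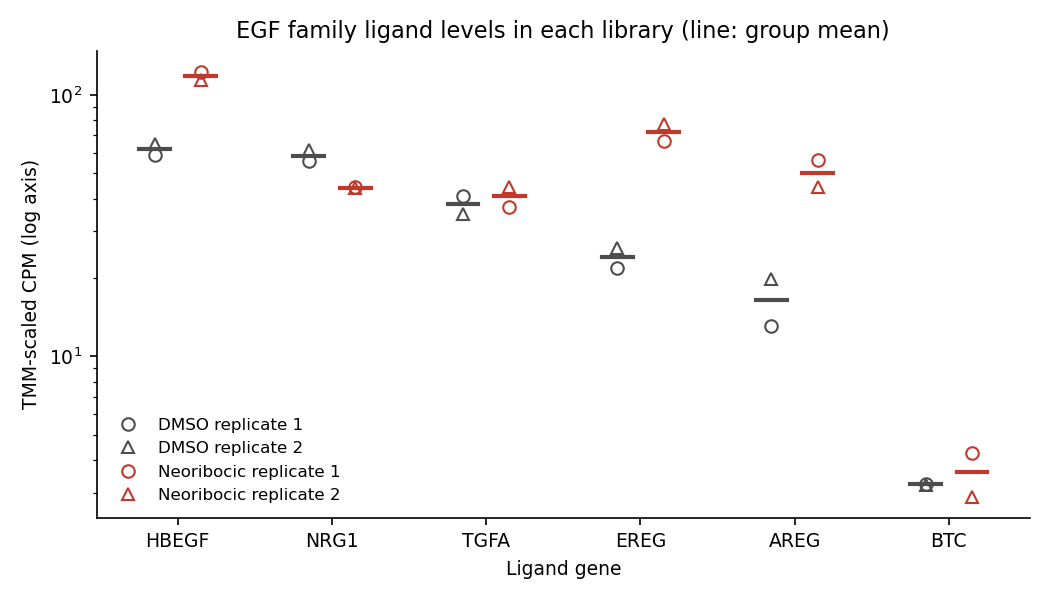
TMM-scaled CPM (log axis) of the 6 tested ligands in each of the 4 libraries, with a line at each group mean; EPGN, with 0 to 6 counts a library, is not drawn. Both Neoribocic libraries lie above both DMSO libraries for HBEGF, EREG and AREG, the groups overlap for TGFA and BTC, and NRG1 is lower in both Neoribocic libraries.

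AREG (ENSG00000109321), an EGFR ligand of mammary gland growth, was at 13.1 and 19.8 CPM in DMSO replicates 1 and 2 and at 56.1 and 44.5 CPM in Neoribocic replicates 1 and 2. Both treated libraries were high, and the lower of them stood 2.25 times above the higher DMSO library. The mean went from 16.4 ± 4.74 to 50.3 ± 8.17 CPM (SD; n = 2 libraries in each group), and AREG rose by 1.61 ± 0.27 on the log2 scale (SE; edgeR adjusted p = 0.00306). AREG was the ligand with the widest gap between its DMSO libraries, and its log2 fold change was 1.34 without DMSO replicate 1 and 1.95 without DMSO replicate 2. Among all genes tested, 5.66% had a larger log2 fold change.

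EREG (ENSG00000124882), a ligand that activates EGFR and ERBB4 with low affinity and long-lasting signalling, was at 21.8 and 25.9 CPM in DMSO and at 66.7 and 77.2 CPM in Neoribocic. The groups did not overlap, the lower treated library standing 2.57 times above the higher DMSO library. EREG rose from 23.9 ± 2.93 to 72.0 ± 7.47 CPM, by 1.59 ± 0.22 on the log2 scale (edgeR adjusted p = 0.00149). The count ratio of AREG to EREG within a library was 0.600 and 0.763 in DMSO and 0.841 and 0.577 in Neoribocic, so the groups overlapped in this ratio. This ratio keeps the trend with transcript length and GC content described below. With that trend removed the log2 fold change was 1.46 for AREG and 2.15 for EREG.

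HBEGF (ENSG00000113070), which binds heparan sulfate as well as its receptors, was at 59.0 and 64.9 CPM in DMSO and at 122 and 114 CPM in Neoribocic. It rose from 61.9 ± 4.17 to 118 ± 5.60 CPM, by 0.93 ± 0.19 on the log2 scale (edgeR adjusted p = 0.00654), with the lower treated library 1.76 times above the higher DMSO library. Its highest adjusted p over 18 alternatives was 0.0459, without Neoribocic replicate 1. HBEGF rose by less than its relatives within each library: the count ratio of AREG to HBEGF was 0.222 and 0.305 in DMSO and 0.459 and 0.390 in Neoribocic, and that of EREG to HBEGF was 0.370 and 0.400 against 0.546 and 0.676. Such ratios do not depend on how libraries are scaled, but they keep any trend with transcript length and GC content. Neither pair of groups overlapped, but 2 libraries against 2 cannot give an exact two-sided permutation p below 0.333.

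TGFA (ENSG00000163235), an EGFR ligand often made by carcinoma cells, was at 41.0 and 35.1 CPM in DMSO and at 37.1 and 44.5 CPM in Neoribocic. The groups overlapped, and the log2 fold change of 0.10 had a 95% interval of -0.40 to 0.61 (edgeR adjusted p = 0.732). BTC (ENSG00000174808) was low, with 106 to 182 counts a library, at 3.24 and 3.23 CPM in DMSO and 4.28 and 2.91 CPM in Neoribocic. Its groups overlapped too, with a log2 fold change of 0.15 and an interval of -0.58 to 0.88 (edgeR adjusted p = 0.728). For both ligands a change of the size seen for AREG lies outside the interval.

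NRG1 (ENSG00000157168), whose many isoforms this count per gene does not separate, was the one tested ligand below its DMSO level. It stood at 55.7 and 61.3 CPM in DMSO and at 44.2 and 43.8 CPM in Neoribocic. Both treated libraries were lower, as they were for 37.3% of all genes tested, while for AREG, EREG and HBEGF both were higher, as for 37.8%. The groups thus did not overlap for 4 of the 6 tested ligands and for 75.1% of all genes tested. The log2 fold change of -0.41 ± 0.20 did not pass (edgeR adjusted p = 0.131; 95% interval -0.87 to 0.05). Within libraries the count ratio of HBEGF to NRG1 moved from 1.06 in both DMSO libraries to 2.76 and 2.61 in Neoribocic. The ratio of EREG to NRG1 moved from 0.391 and 0.423 to 1.51 and 1.76.

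EPGN (ENSG00000182585) had 0 and 2 counts in DMSO and 0 and 6 in Neoribocic. It did not pass the count filter, and a count of 0 allows up to 3 counts, or 0.0846 CPM in DMSO replicate 1 and 0.0706 CPM in Neoribocic replicate 1. No difference in EPGN was detectable at this depth.

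Across genes the response varied with the length and base composition of the transcript. With tested genes cut into 4 equal groups, the median log2 fold change was 0.52 for the shortest transcripts and -0.51 for the longest, and -0.52 at the lowest and 0.57 at the highest GC content. The fit was therefore repeated with a smooth trend on both removed in every library. After this correction 36.1% of 13862 genes were called, 16.6% higher and 19.5% lower, and of the 6 ligands 4 were higher and 1 lower. AREG stood at 1.46 ± 0.26, EREG at 2.15 ± 0.22 and HBEGF at 0.75 ± 0.13 (edgeR adjusted p = 0.0104, 0.00325 and 0.00903). The correction also brought TGFA to 0.53 ± 0.16 and NRG1 to -0.70 ± 0.14, both past the threshold (edgeR adjusted p = 0.0441 and 0.0132), while BTC at 0.55 was not (0.226). The transcripts used were 1240 bases long with a GC content of 45.3% for AREG, 4619 bases and 36.1% for EREG, 2386 bases and 50.9% for HBEGF, 4310 bases and 45.9% for TGFA and 2035 bases and 51.4% for NRG1. AREG, EREG and HBEGF were thus called with and without the trend, and NRG1 only with it removed. TGFA lost its call again when the replicate number was added as a block to the corrected fit (0.53; edgeR adjusted p = 0.0677).

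**Figure D2:**
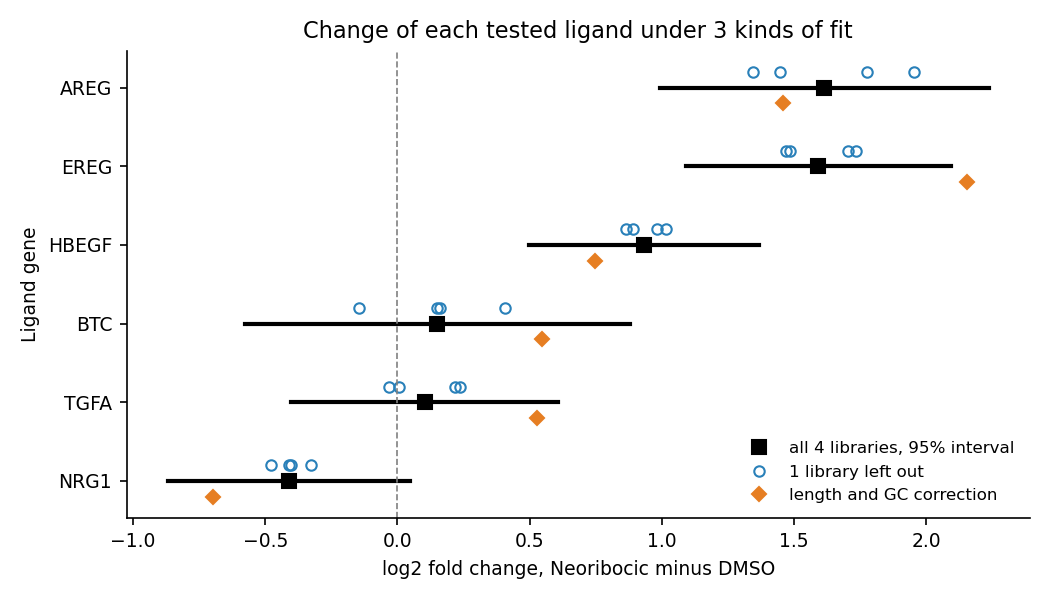
Log2 fold change (Neoribocic minus DMSO) of the 6 tested ligands: squares with lines are the fit on all 4 libraries with its 95% interval, circles the fits with 1 library left out, diamonds the fit corrected for transcript length and GC content. The values of AREG, EREG and HBEGF lie above 0 in every fit drawn, from 0.75 to 2.15, those of NRG1 lie below 0, and those of TGFA and BTC are on both sides of 0.

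Levels were compared between ligands per kilobase of 1 transcript per gene. In DMSO the order was NRG1 (28.8 ± 1.94 CPM per kb), HBEGF (26.0 ± 1.75), AREG (13.3 ± 3.82), TGFA (8.83 ± 0.979), EREG (5.17 ± 0.635), BTC (1.15 ± 0.00273) and EPGN (0.0255 ± 0.0361). The ranges of mean ± SD overlapped for NRG1 and HBEGF and for AREG and TGFA, but each pair kept its order within both DMSO libraries. In Neoribocic the order was HBEGF (49.5 ± 2.35 CPM per kb), AREG (40.6 ± 6.59), NRG1 (21.6 ± 0.149), EREG (15.6 ± 1.62), TGFA (9.48 ± 1.21), BTC (1.28 ± 0.346) and EPGN (0.0528 ± 0.0747). On this scale HBEGF, AREG and EREG each moved up 1 place, NRG1 moved from place 1 to 3 and TGFA from 4 to 5.

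The 7 ligands together summed to 78.1 and 88.2 CPM per kb in DMSO and to 143 and 134 in Neoribocic. AREG, EREG and HBEGF made up 53.3% ± 2.85 of this sum in DMSO and 76.5% ± 1.69 in Neoribocic (SD, n = 2 per group). These 3 were grouped because they were called higher in the same libraries, so their larger joint share follows from those calls. CPM is relative to all counts of a library, so the larger sum does not show more ligand mRNA per cell. NRG1 went from 35.1% and 34.2% of the sum to 15.2% and 16.1%. HBEGF took 31.7% and 30.8% in DMSO and 35.9% in both Neoribocic libraries. Places and shares depend on the length used. Per kilobase of all annotated exons, 11328 bases for NRG1, its level in DMSO was 5.17 ± 0.349 and it went from place 4 to 5, EREG from 5 to 3 and TGFA from 3 to 4, while HBEGF and AREG held places 1 and 2 in both groups. The share of HBEGF was then slightly lower with Neoribocic, 42.8% and 41.6% in DMSO against 40.9% and 41.0%. AREG, EREG and HBEGF then made up 71.1% ± 3.54 of the sum in DMSO and 85.9% ± 1.46 in Neoribocic.

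**Figure D3:**
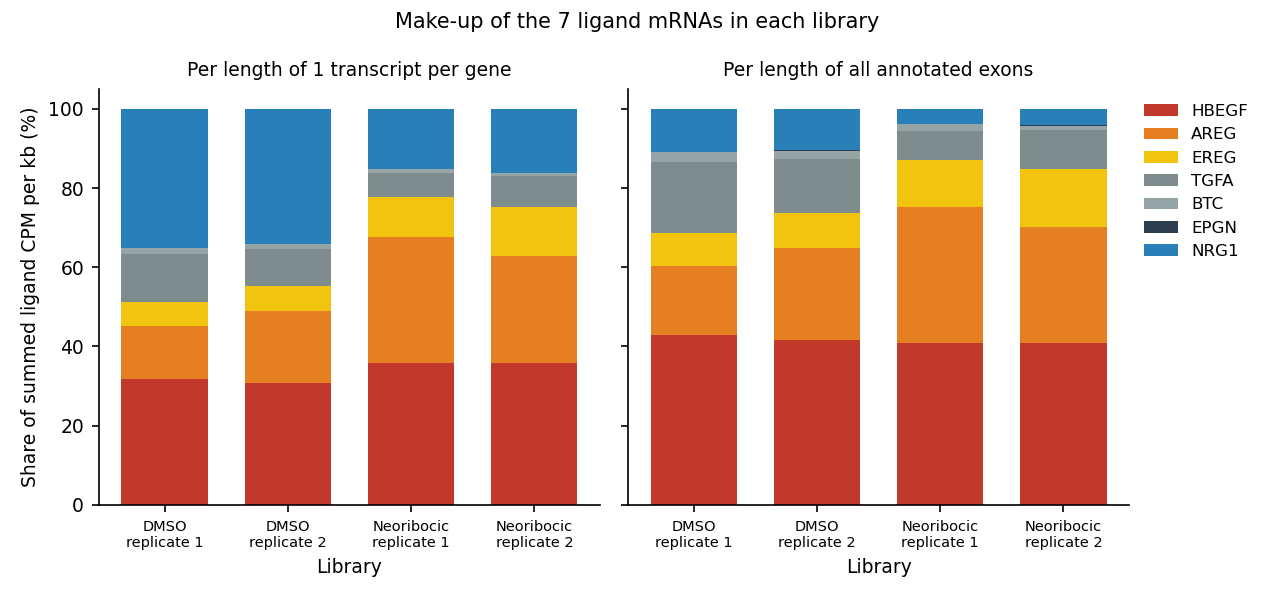
Share (%) of each ligand in the summed CPM per kilobase of the 7 ligands, 1 bar per library, with lengths from 1 transcript per gene (left) or from all annotated exons (right). The blue NRG1 segment is smaller in both Neoribocic libraries, 15.2% and 16.1% against 35.1% and 34.2% in the left panel, and the orange AREG and yellow EREG segments are larger.

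The 4 ErbB receptors, to which the ligands bind, did not move as a group. EGFR (ENSG00000146648) was at 918 and 1079 CPM in DMSO and at 347 and 376 CPM in Neoribocic, low in both treated libraries. It fell from 998 ± 114 to 361 ± 20.2 CPM, a log2 fold change of -1.47 ± 0.20 (edgeR adjusted p = 0.00141), or -0.75 with the length and GC correction. ERBB3, which pairs with other ErbB receptors after binding neuregulins, rose from 4.61 ± 1.65 to 9.78 ± 0.143 CPM, by 1.08 ± 0.31 (edgeR adjusted p = 0.0246). That call was lost without DMSO replicate 2 or either Neoribocic library (edgeR adjusted p = 0.0806, 0.0991 and 0.0883). ERBB2, the receptor without a ligand of its own, stood at 0.49 ± 0.20 and did not pass (edgeR adjusted p = 0.0882). Of 18 alternatives 1 called it, upper-quartile scaling (edgeR adjusted p = 0.0379), a scaling that moves the median of all genes by 0.12. With the length and GC correction ERBB2 stood at 0.15 (edgeR adjusted p = 0.501). ERBB4 did not exceed 0.463 CPM in any library. The 2 receptors able to bind NRG1 directly, ERBB3 and ERBB4, were thus both below 10 CPM.

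Relative to EGFR, the 4 most abundant EGFR ligands were all higher in the treated libraries. For AREG, EREG and HBEGF this follows from their rise and the fall of EGFR given above. EREG had 0.0237 and 0.0240 counts per EGFR count in DMSO and 0.192 and 0.206 in Neoribocic. AREG went from 0.0143 and 0.0183 to 0.162 and 0.119, and HBEGF from 0.0642 and 0.0601 to 0.352 and 0.304. TGFA, whose own level did not pass the test, went from 0.0447 and 0.0325 to 0.107 and 0.119 as EGFR fell. These ratios do not depend on library scaling, but the trend with length and GC content does not cancel in them. EGFR itself stood at -1.47 without and at -0.75 with the correction.

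**Figure D4:**
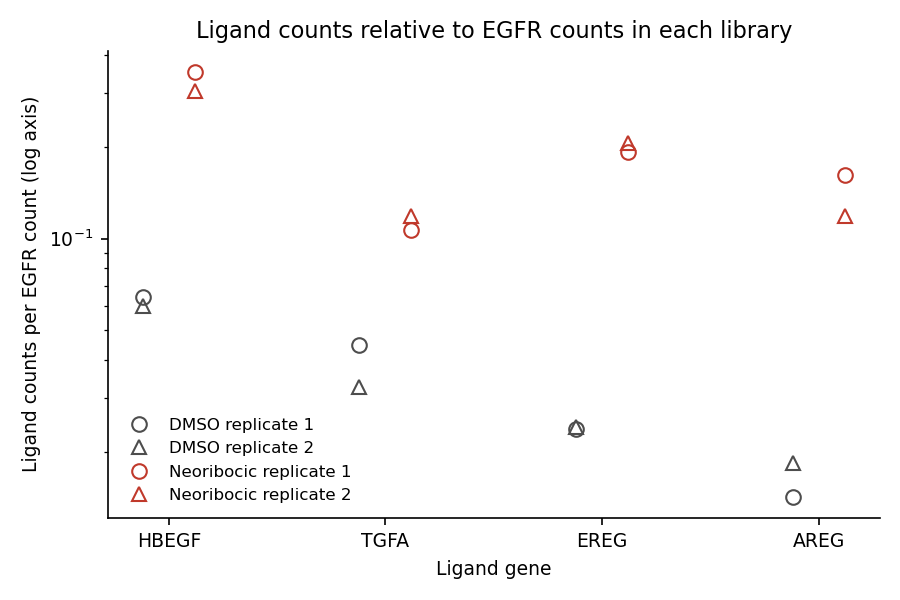
Counts of 4 EGFR ligands per EGFR count in each library (log axis). Both Neoribocic libraries lie above both DMSO libraries for each ligand, with mean ratios of 0.140 against 0.0163 for AREG, 0.199 against 0.0239 for EREG, 0.328 against 0.0622 for HBEGF and 0.113 against 0.0386 for TGFA.

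The other ligands of the family were rare. EGF, the founding ligand, was at 4.65 and 3.35 CPM in DMSO and at 2.19 and 2.32 CPM in Neoribocic, with a log2 fold change of -0.83 ± 0.32 that did not pass (edgeR adjusted p = 0.0665). NRG2 did not exceed 2.62 CPM or NRG4 0.330 CPM, and NRG3 had 0 counts in every library. Of the 3 tested, 0 passed, against 40.4% of all genes tested.

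Genes that process and deliver the ligands moved in both directions: of 17 tested genes of ligand shedding and trafficking, 6 rose and 7 fell, with a median log2 fold change of 0.21, or -0.02 with the correction (4 higher and 5 lower). Among all genes tested 19.1% rose and 21.3% fell, or 16.6% and 19.5% with the correction. ADAM17, the main sheddase of AREG, EREG, HBEGF and TGFA, did not pass, at 63.4 ± 1.76 and 80.9 ± 10.1 CPM (log2 fold change 0.35 ± 0.20; edgeR adjusted p = 0.191), and reached 0.88 with the correction (0.00624). RHBDF1, which encodes iRhom1, a partner that carries ADAM17 to the cell surface, rose by 1.66 ± 0.23, from 32.7 ± 5.03 to 103 ± 17.7 CPM (edgeR adjusted p = 0.00151; corrected 1.08). The metalloprotease genes ADAM8 and ADAM15 rose by 1.36 and 1.03 (corrected 0.85 and 0.44). TIMP3, an inhibitor of ADAM17 and other metalloproteases, went from 243 ± 6.59 to 86.2 ± 14.4 CPM and fell by 1.50 on the log2 scale (edgeR adjusted p = 0.00139). ADAM10, the main sheddase of BTC and EGF, fell by 1.77 and ADAM9 fell by 1.43, with corrected values of -0.68 and -0.88. The call of ADAM15 was lost without Neoribocic replicate 1 (edgeR adjusted p = 0.0600) and with the correction (0.0733). With a library left out the calls in this list numbered 6 to 10, against 13.

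Downstream of the receptors, 8 of 13 genes of adaptors and signal enzymes fell and 2 rose, with a median log2 fold change of -0.93, or -0.32 with the correction. Of all genes tested 21.3% were called lower and 19.1% higher. With the correction these shares were 19.5% and 16.6%, close to the corrected counts of this list. SOS1, the exchange factor that activates RAS, went from 77.5 ± 14.6 to 18.0 ± 2.42 CPM and fell by 2.11 on the log2 scale (edgeR adjusted p = 8.56e-04; corrected -1.20). Its relative SOS2 fell by 1.14 (corrected -0.43), and PIK3R1, a regulatory subunit of PI3-kinase, fell by 1.98 (corrected -1.19). The docking protein gene GAB2 rose by 0.94 and the adaptor gene SHC1 by 0.78 (corrected 0.95 and 0.50). SOS2 lost its call without Neoribocic replicate 1 (edgeR adjusted p = 0.0560) and with the correction (0.0553), and SHC1 without DMSO replicate 1 (0.0617) or Neoribocic replicate 1 (0.0740). Between 3 and 9 genes of the list were called with a library left out, 3 of them without Neoribocic replicate 1, and with the correction 3 were lower and 2 higher.

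Among genes that restrain or remove ErbB receptors, 3 of 12 tested rose and 6 fell, with a median log2 fold change of -0.46, or 0.23 with the correction. The shares over all genes tested were 19.1% higher and 21.3% lower, or 16.6% and 19.5% with the correction. ERRFI1, which encodes the EGFR inhibitor MIG6, rose from 239 ± 3.70 to 491 ± 34.8 CPM, by 1.04 ± 0.19 (edgeR adjusted p = 0.00385; corrected 1.39). The ubiquitin ligase genes STUB1 and RNF41, the second of which targets ERBB3, rose by 1.29 and 1.21. EPS15, an endocytic adaptor of EGFR, fell by 1.33 (corrected -0.62). SOCS4 fell by 0.71 and LRIG3 fell by 0.83, but SOCS4 stood at 0.01 and LRIG3 at -0.48 with the correction, neither called, and each lost its call with any 1 library left out. With the correction 5 genes of the list were higher and 2 lower, the reverse of the order without it. STUB1, of whose exon bases 42.4% overlap a gene on the opposite strand, lost its call with the correction (0.45; edgeR adjusted p = 0.0563), and RNF41 without DMSO replicate 1 or either Neoribocic library (edgeR adjusted p = 0.0709, 0.127 and 0.0535). Calls in the list numbered 3 to 5 with a library left out, against 9.

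Genes that respond to ERK signalling went both ways, 6 of 25 rising and 4 falling, with a median log2 fold change of 0.06, or -0.26 with the correction (4 higher and 4 lower). The 10 calls among 25 genes were at the share over all genes tested, 40.4%. With the correction that share was 36.1%, so this list was not called more often than genes at large. The balance turned on the DMSO library used, with 3 higher and 5 lower without DMSO replicate 1 and 6 higher and 1 lower without DMSO replicate 2. The DMSO libraries stood far apart in some of these genes: EGR1, an immediate early transcription factor gene, was at 49.5 and 319 CPM in DMSO and at 90.0 and 128 CPM in Neoribocic. Leaving out DMSO replicate 1 gave EGR1 a called log2 fold change of -1.56 (edgeR adjusted p = 0.00814), leaving out replicate 2 one of 1.15 (0.0330), and with both libraries EGR1 did not pass (0.619). FOSL1 was at 593 and 1317 CPM and MYC at 7.98 and 29.3 CPM in DMSO replicates 1 and 2. DUSP5, a phosphatase of nuclear ERK, rose from 149 ± 21.2 to 385 ± 44.1 CPM, by 1.37 ± 0.20 (edgeR adjusted p = 0.00191), the transcription factor gene ETV5 by 1.01 and JUNB by 1.47. The related factor ETV1 went from 146 ± 3.23 to 42.6 ± 8.27 CPM and fell by 1.77 on the log2 scale (edgeR adjusted p = 0.00101; corrected -0.96). ETV4 fell by 0.94 (corrected -1.53) and CCND1 (cyclin D1) fell by 0.83. JUNB lost its call without Neoribocic replicate 1 (edgeR adjusted p = 0.0525) and with the correction (0.0629), CCND1 without DMSO replicate 2 (0.0558) or Neoribocic replicate 1 (0.104), and ETV4 without DMSO replicate 2 (0.0971) or Neoribocic replicate 2 (0.0876). The list's calls numbered 4 to 8 with a library left out, against 10. Across the 6 lists 44 of 74 tested genes passed (59.5%), against 40.4% of all genes tested. With the length and GC correction 31 passed (41.9%), against 36.1% of all genes. The counts were 29 (39.2%) without DMSO replicate 1, 31 (41.9%) without DMSO replicate 2, 17 (23.0%) without Neoribocic replicate 1 and 28 (37.8%) without Neoribocic replicate 2. The shares of all genes in those fits were 28.2%, 28.6%, 17.5% and 32.3%.

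**Figure D5:**
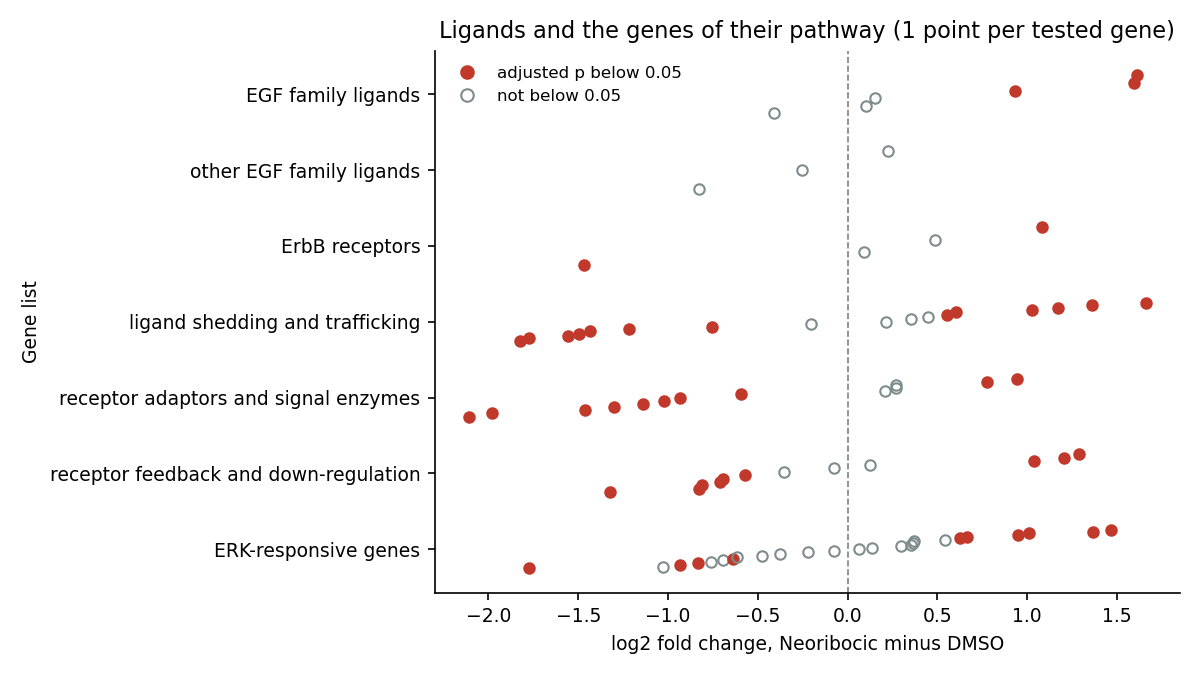
Log2 fold change (Neoribocic minus DMSO) of each tested ligand and of each tested gene in 6 lists of its pathway, filled where the edgeR adjusted p was below 0.05. The 3 filled ligand points lie above 0, while the filled points of the shedding, adaptor, feedback and ERK lists lie on both sides.

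The genes nearest to each rising ligand over the 4 libraries were found by the Euclidean distance between log2 CPM values centred on their mean. For AREG these were HEYL, REEP6 and MEGF6, at distances of 0.0708 to 0.114. For EREG they were GOLGA8O, a member of a family of near-identical copies whose counts are uncertain, THBS3 and CES3, at 0.0780 to 0.111. For HBEGF they were EEF1AKMT3, C17orf58 and GSN, at 0.0284 to 0.0328. The other rising ligands were not among these nearest genes. Ranks run over the tested genes with a symbol, out of 13879 genes tested. From AREG, EREG, at 0.457, was number 228 and HBEGF, at 0.787, number 1166. From EREG, AREG was number 260 and HBEGF number 930. From HBEGF, EREG was number 3731 and AREG number 4447.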

How the data were processed

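The authors deposited raw counts per Ensembl gene, 1 column per library. Which aligner, counter, strand setting and human build were used is not stated. GRCm38 and mm10, both mouse builds, are the only builds in the submitters' processing notes, so no gene coordinates are tied to the counts. Of 20263 identifiers 20148 were in the table of gene names. Among counts below 20, 62.3% to 65.4% were even, so counts may not all be independent fragments.

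Tests used edgeR 4.0.16 in R 4.3.3: filterByExpr by group, TMM, and a robust quasi-likelihood fit with the group as its only term. The standard error is the log2 fold change divided by the square root of F, and 95% intervals use t quantiles of the fit's degrees of freedom. The correction fitted log2 CPM on length and GC content of 1 GENCODE 29 transcript per gene in each library (mgcv 1.9.3) and entered the fit as an offset. A true response along length or GC content would be removed with the trend. Fits were tested on simulated counts with 200 changed genes, drawn with trended and with gene-wise dispersions. In both, more than 5% of the calls were false, most with the replicate block at gene-wise dispersions, so calls near the threshold are the least secure. Each rests on 1 draw, with far fewer changed genes than were called in these data, so the false share need not carry over. Promoters are from RefSeq, GRCh38.p14. Motif letters and within-library count ratios were chosen with the ligands' values known.

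Alternatives were other scalings, filters, DESeq2 1.42.0, limma-voom (limma 3.58.1), a block for the replicate number, leaving out each library, thinned or halved counts, no mitochondrial genes, and the correction. Named beside the ligands are the 4 receptors, up to 3 genes per direction and list with the smallest p among those called, the 3 genes nearest each called ligand, and protein-coding genes starting within 200 kb of the chromosome 4 ligands; ADAM17, EGF, NRG2, NRG3, NRG4, EGR1, FOSL1, MYC and the marker genes were added after their values were seen. The members and lists were chosen with earlier results of these data known.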

Additional observations from a re-analysis of the deposited data

How the results depend on the processing

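AREG, EREG and HBEGF kept their call and direction under all 18 alternatives, with log2 fold changes of 1.34 to 1.95, 1.47 to 2.18 and 0.75 to 1.11. The number of ligands called was 3 except with the length and GC correction, which called 5, and that correction together with the replicate block, which called 4, without TGFA (0.53, adjusted p = 0.0677). With each library left out, TGFA ran from -0.032 (without Neoribocic replicate 2) to 0.24, BTC from -0.15 (without Neoribocic replicate 1) to 0.41 and ERBB4 from -0.065 (without Neoribocic replicate 2) to 0.24, none of them called. SOCS4 turned to 0.01 with the correction, both without the replicate block (0.0079) and with it (0.0064). NRG1 passed only with the correction, at -0.70 with and without the block. With each library left out, genes called ran from 2468 to 4536, ligands from 3 to 3 and pathway genes from 17 to 31. Of the genes called 47.2% were higher, against 56.8% under upper-quartile scaling and 59.6% under library totals, the last a scaling that moves the median log2 fold change by 0.17. With it NRG1 stood at -0.23. The cause of these shifts was not tested. With the replicate number as a replicate block, 5594 genes and the same number of ligands, 3, were called; libraries with the same number did not deviate together (correlation of their differences -0.05), and no label says that the numbers pair cultures. EPGN and NRG3 did not pass the count filter, and NRG4 was tested on only 3 to 14 counts a library.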

Other observations

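On chromosome 4, genes beside the ligand cluster did not share one direction. In order along the chromosome, MTHFD2L, a mitochondrial one-carbon enzyme gene, lies before EPGN, EREG, AREG and BTC, and PARM1 after them. MTHFD2L was at 10.1 and 7.04 CPM in DMSO and at 19.5 and 12.5 CPM in Neoribocic, a log2 fold change of 0.90 ± 0.31 (edgeR adjusted p = 0.0454), and 13 of 18 alternatives called it, the adjusted p reaching 0.296 without Neoribocic replicate 1. PARM1 went from 24.9 ± 10.1 to 6.97 ± 0.532 CPM (SD over 2 libraries) and fell by 1.84 on the log2 scale (edgeR adjusted p = 0.00338; corrected -1.31). With the correction MTHFD2L stood at 1.15 (edgeR adjusted p = 0.0311). EREG and AREG thus lie between EPGN, which was not tested, and BTC, which did not pass. Beyond these lie MTHFD2L, called higher close to the threshold, and PARM1, called lower.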
